A study of Mus musculus with 4 samples.

Results

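A set of 10 regulators linked to the choice and maintenance of brown fat identity were examined in differentiated mouse brown adipocytes with and without knockdown of the long noncoding RNA Blnc1. They are the EBF factors Ebf1, Ebf2 and Ebf3, the zinc finger genes Prdm16, Zbtb7b, Zfp423 and Zfp516, the histone methyltransferase gene Ehmt1, the corepressor gene Tle3, and Plac8. Every probe set whose annotation names exactly 1 of these symbols was taken, which gave 23 probe sets for 10 genes, out of 45037 probe sets and 17097 named genes on the array. Ebf1, Ebf2, Ebf3 and Tle3 have 3 probe sets each, Prdm16 has 4, Zbtb7b and Zfp516 have 2, and Zfp423, Ehmt1 and Plac8 have 1. A probe set is a group of short probes for one transcript, and its value is a log2 expression level, so a difference of 1 is a 2-fold change.

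The Blnc1 knockdown group consists of 2 arrays of brown adipocytes expressing a short hairpin RNA (shRNA) labelled shBlnc1. The scramble group consists of 2 arrays of brown adipocytes expressing a Scramble shRNA. Both groups were differentiated for 6 days, both carry an expressed hairpin, and the arrays of a group are labelled as biological replicates. Whether the cells are a line or a primary culture, and how many shBlnc1 hairpins were used, is not stated in the labels, so an effect of 1 hairpin other than that on Blnc1 cannot be told apart from the knockdown. The annotation names no Blnc1 probe set, and the level of the target was not analysed here.

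EBF factors are DNA-binding proteins that open brown fat enhancers, and EBF2 recruits PPARG to them. PRDM16 turns a muscle-like or white-like precursor toward the brown fate in complexes with C/EBPB, CtBP and the methyltransferase EHMT1, while TLE3 counteracts PRDM16. Blnc1 is known to form a ribonucleoprotein complex with EBF2, and ZBTB7B is known to promote brown fat differentiation. The comparison asks whether the transcripts of these factors, as opposed to the genes they act on, differ when Blnc1 is knocked down.

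Across the probe sets the replicates correlated at r = 0.9962 (knockdown) and r = 0.994 (scramble), and arrays of different groups at 0.9817 to 0.9837. Probe sets are no independent replicates, so these values only describe the arrays. All 6 measured general fat cell markers were above background in both groups, and 1 of them passed, Cd36, which was higher in knockdown (log2 fold change 0.40; adjusted p = 0.0457). Adipoq, the adiponectin gene, read 11.86 and 11.83 on the knockdown arrays, against 11.81 and 11.75 on the scramble arrays. Ucp1, which defines brown adipocytes, was above the background log2 value of 2.55 on every array. For Actb, the 3' control signal exceeded the 5' one, a measure of RNA integrity, by (log2) 1.77 and 1.88 on the knockdown arrays, against 0.99 and 1.15 on the scramble arrays. For Gapdh the excess was 0.34 and 0.40 in knockdown, against 0.09 and 0.04 in scramble. The 18S rRNA control read 6.64 and 7.01 in knockdown, against 5.13 and 4.43 in scramble. Above background were 60.4% and 60.3% of probe sets in knockdown, against 62.8% and 63% in scramble. Each of these measures thus differed by group. Of 5 measured preadipocyte markers, 4 were higher in knockdown, of which Cd34 had a scramble mean at background. The summed level (log2) of the 5 was 7.20 on both knockdown arrays, against 6.38 and 6.61 on the scramble arrays. Of 6 hepatocyte markers, 5 were lower in knockdown, with summed levels of 6.00 and 5.28 on the knockdown arrays, against 7.60 and 7.38 on the scramble arrays. Apob was the member of that list that did not pass, and only Serpina1c among the 6 had a group mean at background. Over all genes, each taken by its brightest probe set, 10.6% were higher in knockdown and 6.24% lower by the same test. The part of RNA integrity and of these cell markers in the results that follow was not tested, and in bulk samples fewer cells of a type and less RNA per cell cannot be told apart.

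One member was higher on the Blnc1 knockdown arrays, Plac8, and none of the others passed the test in either direction. The test was limma on all 45037 probe sets with Benjamini-Hochberg adjustment, and a probe set passed at an adjusted p under 0.05. Of the 23 member probe sets, 1 was higher, 0 were lower and 22 did not pass. Over all probe sets 14.1% passed, 8.73% of them all being higher and 5.38% lower, so 1 of 23 was no more than that background. At an unadjusted p under 0.05 there were 6 member probe sets (4 lower, 2 higher), where 30.1% of all probe sets reached that level.

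The members' changes were small in size. Their log2 fold changes, knockdown minus scramble, ran from -0.48 to 0.56 with a median of -0.12, and the median over all probe sets was -0.05. The log2 fold change was below 0 for 17 of the 23, and 58% of all probe sets were below 0. The groups did not overlap for 10 of the 23 (8 lower, 2 higher), against 58.9% of all probe sets. The 95% intervals bound the change in array signal: every one of the 23 lay above -1, the lowest bound being -0.99, and the highest bound was 0.84. A 2-fold fall in signal therefore lay outside each interval, while 11 intervals reached a change of 0.5 in size. The intervals are not adjusted for the number of probe sets. For probe sets at or near background they do not bound the change of the transcript. Of the 23, 21 had both group means above background, 1 had 1 group above it and 1 had both at background, these last both being probe sets of Tle3.

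**Figure D1:**
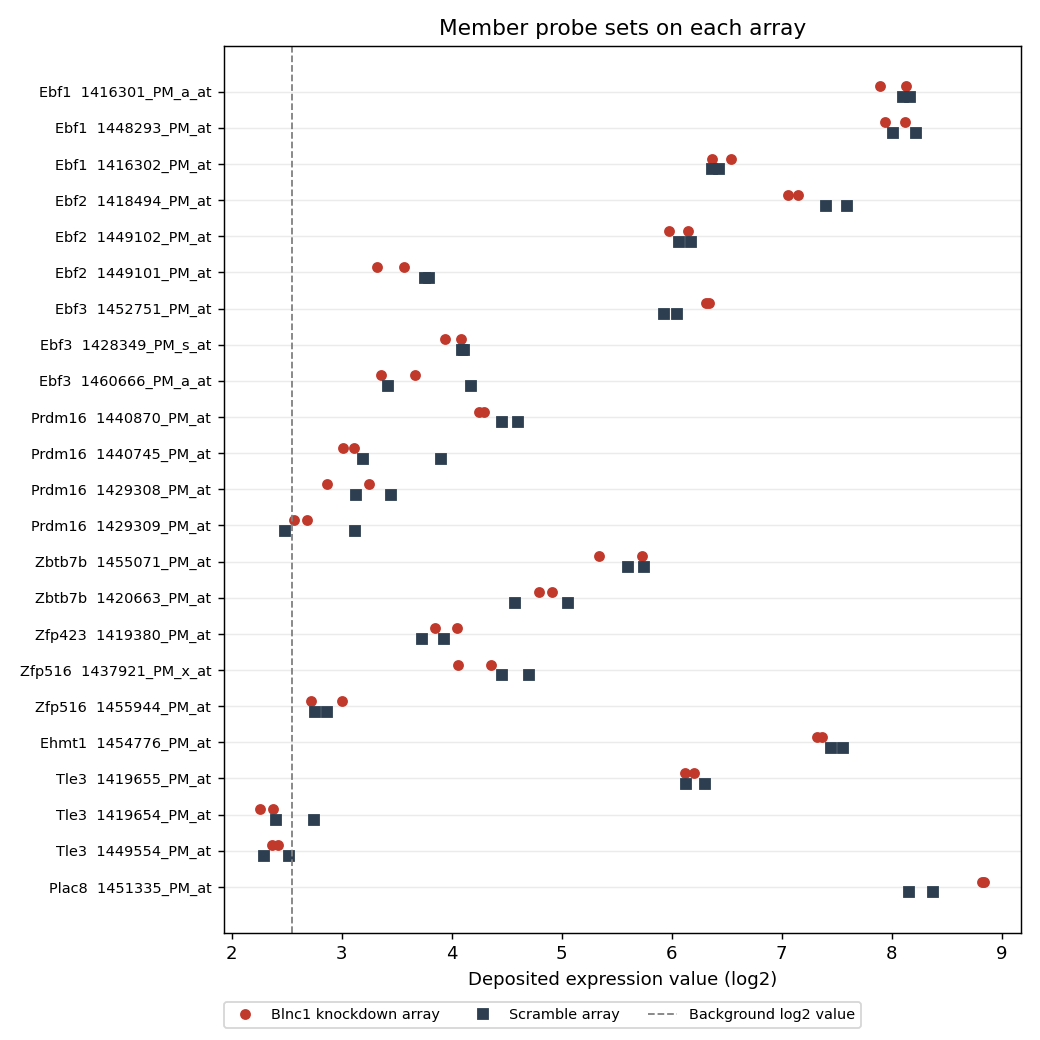
Deposited log2 expression value of each of the 23 member probe sets (rows) on the Blnc1 knockdown arrays (circles, upper) and the scramble arrays (squares, lower), 2 arrays each, with the background log2 value of 2.55 dashed. The groups lie apart for 10 probe sets, among them Plac8 and the brightest probe sets of Ebf2, Ebf3, Prdm16 and Zfp516, and the levels of different probe sets are not comparable with each other.

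Ebf2, the brown-selective EBF factor that Blnc1 binds, read lower on the knockdown arrays at 2 of its 3 probe sets without passing the test. Its brightest probe set (1418494_PM_at, Entrez Gene 13592, chromosome 14) read 7.06 and 7.15 on the knockdown arrays, against 7.59 and 7.40 on the scramble arrays. Both knockdown values lay below both scramble values. The log2 fold change was -0.40 (95% interval -0.66 to -0.13), with an adjusted p of 0.0615 by limma. The dimmest probe set (1449101_PM_at) gave 3.57 and 3.32 on the knockdown arrays and 3.79 and 3.76 on the scramble arrays, again with no overlap, and a log2 fold change of -0.33 (adjusted p = 0.112). The probe set in between (1449102_PM_at) gave 6.15 and 5.98 in knockdown, against 6.07 and 6.17 in scramble, where the groups overlapped (log2 fold change -0.06, interval -0.32 to 0.20). The probe sets of Ebf2 thus differ by 0.34 among themselves, nearly as much as the change at the brightest. The brightest probe set sits beside the threshold: its adjusted p was 0.0318 after quantile normalization, 0.00788 in eBayes with a trend, 0.0489 without the dimmest 40 percent of probe sets, and 0.0477 when only 1 probe set per gene was tested. The same probe set did not pass after median centring (adjusted p = 0.104), in robust eBayes (0.0636) or with a replicate block (0.0727). Its log2 fold change was -0.35 without knockdown replicate 1 and -0.44 without knockdown replicate 2. It was -0.30 without scramble replicate 1 and -0.49 without scramble replicate 2.

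Ebf3, a close relative of Ebf2, gave opposite signs at its probe sets. The brightest (1452751_PM_at, Entrez Gene 13593, chromosome 7) read 6.31 and 6.34 on the knockdown arrays, against 5.93 and 6.05 on the scramble arrays, with no overlap. Its log2 fold change was 0.33 (95% interval 0.09 to 0.58; adjusted p = 0.0761), and the adjusted p was 0.0454 after centring each array on its median and 0.0344 in eBayes with a trend. After quantile normalization the log2 fold change was 0.18 (adjusted p = 0.323). Another probe set (1460666_PM_a_at) read 3.36 and 3.67 on the knockdown arrays, against 3.42 and 4.18 on the scramble arrays, so that its groups overlapped and scramble replicate 2 stood above the rest. Its log2 fold change was -0.28 (interval -0.85 to 0.29), and leaving out scramble replicate 1 gave -0.66 (adjusted p = 0.0392), whereas leaving out scramble replicate 2 gave 0.09. The remaining one (1428349_PM_s_at), of a type that can detect transcripts of several genes, had a log2 fold change of -0.09. Averaged over its probe sets, Ebf3 had a log2 fold change of -0.01, so no direction was settled for this gene.

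Ebf1, the family member that also drives B cell development, had the closest agreement between the groups among the EBF genes. Its brightest probe set (1416301_PM_a_at, Entrez Gene 13591, chromosome 11) read 7.90 and 8.13 on the knockdown arrays and 8.17 and 8.11 on the scramble arrays. The groups overlapped there and at the other probe sets, which had log2 fold changes of -0.09 (1448293_PM_at) and 0.06 (1416302_PM_at). Over the 3 probe sets the intervals ran from -0.40 to 0.31. Of the 4 B cell markers measured, 0 had both group means above background, and Pax5 and Cd79a were at background in both groups. Ms4a1 passed as lower in knockdown, with 2.32 and 2.61 on the knockdown arrays, against 3.04 and 3.12 on the scramble arrays (log2 fold change -0.61; adjusted p = 0.0228), and its part in the EBF values was not tested.

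**Figure D2:**
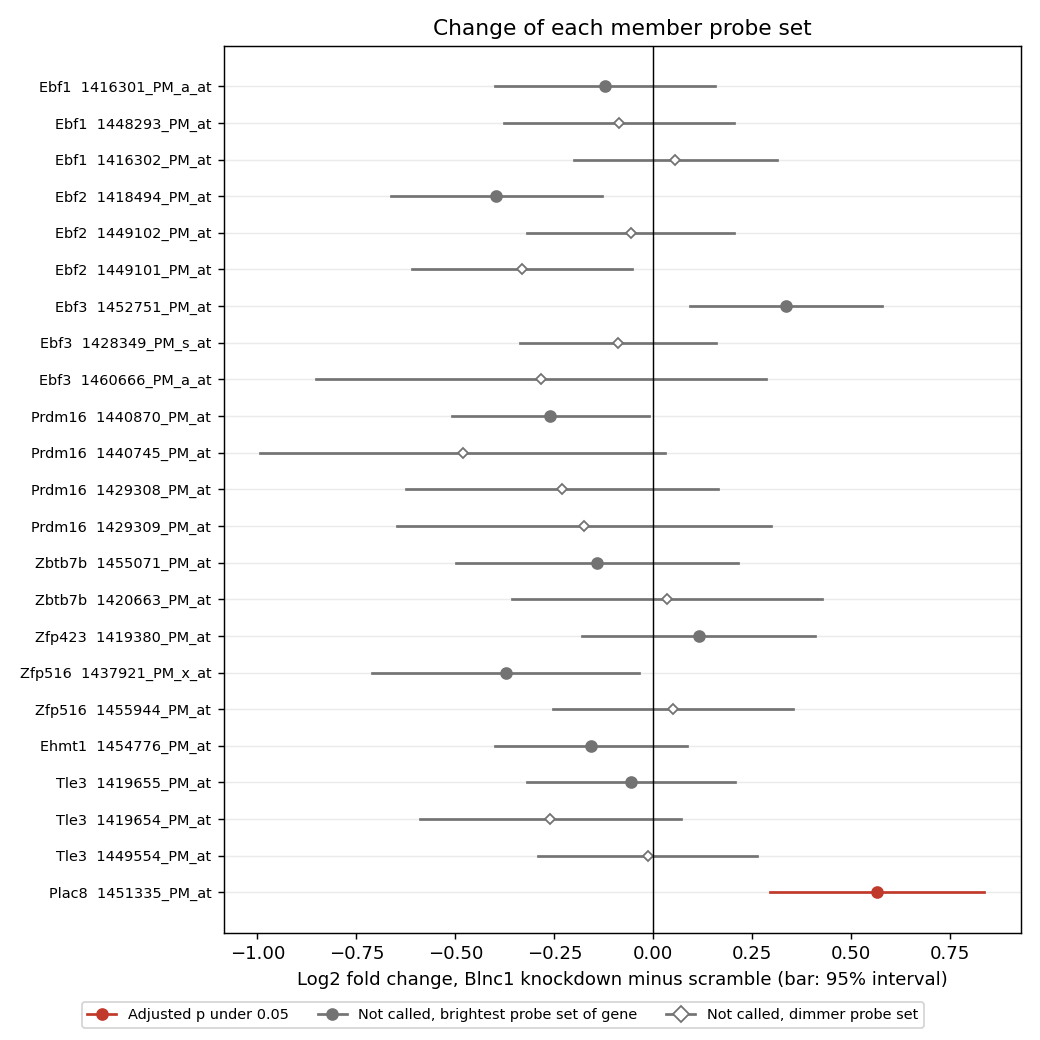
Log2 fold change (Blnc1 knockdown minus scramble) of each member probe set with its 95% interval from limma. Filled circles are the brightest probe set of a gene, open diamonds the dimmer ones, and red marks an adjusted p under 0.05, reached by Plac8 at 0.56.

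All 4 probe sets of Prdm16, the zinc finger factor that sets the brown program, had log2 fold changes below 0, between -0.48 and -0.18, and none passed. The brightest (1440870_PM_at, Entrez Gene 70673, chromosome 4) read 4.29 and 4.25 on the knockdown arrays, against 4.46 and 4.60 on the scramble arrays, with no overlap. Its log2 fold change was -0.26 (95% interval -0.51 to -0.01), with an adjusted p of 0.151, and the average over its probe sets was -0.29 (adjusted p = 0.0682). The probe set with the lowest log2 fold change, 1440745_PM_at, read 3.12 and 3.01 on the knockdown arrays, against 3.90 and 3.19 on the scramble arrays. Scramble replicate 1 stood above the other arrays: without scramble replicate 2 its log2 fold change was -0.84 (adjusted p = 0.00905), and without scramble replicate 1 it was -0.13. The other probe sets, 1429308_PM_at and 1429309_PM_at, had overlapping groups and log2 fold changes of -0.23 and -0.18. Probe set 1429308_PM_at went to -0.04 without knockdown replicate 1, -0.42 without knockdown replicate 2, -0.39 without scramble replicate 1 and -0.07 without scramble replicate 2. Probe set 1429309_PM_at read 2.57 and 2.68 on the knockdown arrays and 2.48 and 3.12 on the scramble arrays, close to background, and its sign turned to 0.14 without scramble replicate 2 while it reached -0.49 (adjusted p = 0.0474) without scramble replicate 1.

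Neither Ehmt1 nor Tle3, whose proteins work with and against PRDM16, passed the test. Ehmt1, which encodes the histone lysine methyltransferase that PRDM16 needs in brown fat, read 7.32 and 7.37 on the knockdown arrays, against 7.56 and 7.45 on the scramble arrays (1454776_PM_at, chromosome 2). These groups did not overlap, but the log2 fold change was only -0.16 (95% interval -0.40 to 0.08; adjusted p = 0.351). Tle3, a Groucho-type corepressor that competes with PRDM16 for PPARG, read 6.20 and 6.12 on the knockdown arrays and 6.13 and 6.31 on the scramble arrays at its brightest probe set (1419655_PM_at, chromosome 9). The groups overlapped, with a log2 fold change of -0.06 (interval -0.32 to 0.21). Its other probe sets lay at or around background, with log2 fold changes of -0.26 (1419654_PM_at) and -0.01 (1449554_PM_at), and give no measure of the gene.

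Zbtb7b, the BTB zinc finger gene also known for setting the helper T cell fate, overlapped between the groups at both probe sets. The brighter (1455071_PM_at, Entrez Gene 22724, chromosome 3) read 5.73 and 5.34 on the knockdown arrays, against 5.60 and 5.75 on the scramble arrays. Its knockdown arrays lay on either side of the lower scramble array, and the log2 fold change was -0.14 (95% interval -0.50 to 0.21; adjusted p = 0.575). The other (1420663_PM_at) read 4.80 and 4.91 in knockdown and 4.58 and 5.06 in scramble, a log2 fold change of 0.03. Of the 4 T cell markers measured, 0 passed the test and 3 had both group means above background, with summed levels of 5.59 and 5.68 on the knockdown arrays, against 5.82 and 5.84 on the scramble arrays.

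Zfp516, a zinc finger gene induced by cold that activates Ucp1 transcription, gave 2 probe sets of unlike behaviour. The brighter (1437921_PM_x_at, Entrez Gene 329003), of a type whose probes can cross-hybridise with other transcripts, read 4.06 and 4.36 on the knockdown arrays, against 4.70 and 4.46 on the scramble arrays. Its groups did not overlap, and its log2 fold change was -0.37 (95% interval -0.71 to -0.04; adjusted p = 0.133). It was -0.22 without knockdown replicate 1 and -0.52 without knockdown replicate 2. The dimmer (1455944_PM_at) read 3.01 and 2.72 in knockdown and 2.87 and 2.76 in scramble, with overlapping groups and a log2 fold change of 0.05. Zfp423, which encodes an EBF-binding zinc finger protein that commits preadipocytes and restrains the brown program in white fat, read 3.84 and 4.05 on the knockdown arrays and 3.93 and 3.73 on the scramble arrays (1419380_PM_at, chromosome 8). The groups overlapped, with a log2 fold change of 0.11 (interval -0.18 to 0.41; adjusted p = 0.587), and 0.22 without scramble replicate 1 and 0.01 without scramble replicate 2.

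Plac8, which encodes a small cysteine-rich protein known in mouse brown fat as an upstream activator of Cebpb, was the member that rose. Its probe set (1451335_PM_at, Entrez Gene 231507, chromosome 5) read 8.84 and 8.82 on the knockdown arrays, against 8.38 and 8.15 on the scramble arrays. Both knockdown values were above both scramble values and lay closer together. The group means were 8.83 ± 0.02 in knockdown and 8.27 ± 0.16 in scramble (SD, n = 2 each), a 1.48-fold rise with a log2 fold change of 0.56 (95% interval 0.29 to 0.84; limma adjusted p = 0.0214). The rise rests on 2 arrays a group and 1 probe set: the adjusted p was 0.112 without knockdown replicate 1, 0.111 without knockdown replicate 2 and 0.0503 without scramble replicate 2, with log2 fold changes of 0.55, 0.58 and 0.45. Cebpb itself read 9.42 and 9.36 on the knockdown arrays and 9.43 and 9.47 on the scramble arrays, a log2 fold change of -0.07 (interval -0.30 to 0.17; adjusted p = 0.709).

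Promoters of the members, from 250 bases before to 50 after the transcription start, were searched for EBF-type motifs and for the CCAAT box. The search held 12 promoters of 8 members from RefSeq sequences (GRCm38.p6), and Ebf2 and Zfp516 were not among them. Zfp516 was left out by its chromosome, a filter that was not applied to the count over all promoters. The EBF-type motif CCCNNGGGA, searched on both strands, was in 1 of the 12, that of Ebf3, and in 6.56% of all 32851 promoters. With a T before it, the palindromic form, it was in 0 of the 12 and in 0.904% of all promoters. The CCAAT box, also searched on both strands, was in 5 of the 12, in Plac8, Prdm16, Tle3 and Zbtb7b, against 37.4% of all promoters. Plac8 is shown as the member that passed the test, and Ebf3 as the promoter with the EBF-type match. Both genes are on the minus strand, and their sequences are written 5′ to 3′ along the gene. Capitals mark the CCAAT box that begins 94 bases before the start of Plac8 and the EBF-type motif, found as its reverse complement, that begins 22 bases before the start of Ebf3. These matches describe the letters in the window and are not binding sites.
Plac8 promoter, chr5:100572156-100572455: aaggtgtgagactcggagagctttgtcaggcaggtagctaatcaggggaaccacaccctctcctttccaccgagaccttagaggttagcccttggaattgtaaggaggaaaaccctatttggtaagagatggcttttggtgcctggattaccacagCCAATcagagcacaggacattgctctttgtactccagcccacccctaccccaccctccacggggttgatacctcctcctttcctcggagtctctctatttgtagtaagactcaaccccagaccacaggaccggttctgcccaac
Ebf3 promoter, chr7:137314396-137314695: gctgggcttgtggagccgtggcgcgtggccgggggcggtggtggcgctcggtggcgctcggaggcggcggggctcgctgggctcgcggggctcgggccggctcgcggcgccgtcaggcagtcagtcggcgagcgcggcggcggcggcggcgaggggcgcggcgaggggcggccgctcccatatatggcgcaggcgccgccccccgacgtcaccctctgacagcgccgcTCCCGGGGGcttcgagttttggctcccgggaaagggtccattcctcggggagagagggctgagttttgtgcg

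The transcripts with values most like those of Ebf2 and Plac8 over the 4 arrays were found among the brightest probe sets of 12886 other genes with at least 1 group mean above background. Likeness was the Euclidean distance between array values after each gene was centred on its own mean, in log2 units. For Ebf2 the nearest were Enho (distance 0.018), Rbp2 (0.021) and Ccdc42os (0.025), of which Rbp2 and Ccdc42os had a knockdown mean at background. For Plac8 they were Gpx7 (0.017), Prc1 (0.018) and Ilvbl (0.025). Each gene is described by only 4 values here, so closeness among 12886 genes does not show shared regulation, which was not tested.

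Among known partners, cofactors and paralogues of the members, each taken by its brightest probe set, the largest difference was that of Zfp521. By the same rule 16.8% of all 17097 genes passed, with 10.6% higher and 6.24% lower. Of 11 measured partners and cofactors, 2 were higher (Zfp521 and Rcor1), 0 lower and 9 did not pass, with a median log2 fold change of -0.02. Of 16 measured paralogues, 1 was higher (Zfp521, which is on both lists), 1 was lower (Tle5) and 14 did not pass, with a median of -0.01. The median over all genes was -0.04. Hnrnpu, Smarca4, Hdac3 and Prdm4 are on these lists and were not analysed here, as no probe set with 1 symbol names them.

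Zfp521 encodes a zinc finger protein closely related to ZFP423 that binds EBF1, inhibits it, and holds precursors back from becoming fat cells. It read 6.29 and 6.21 on the knockdown arrays, against 4.44 and 3.74 on the scramble arrays (1451332_PM_at). Both knockdown values were well above both scramble values, and the scramble arrays differed from each other by more than the knockdown arrays did. The means were 6.25 ± 0.06 in knockdown and 4.09 ± 0.49 in scramble (SD, n = 2 each), a 4.48-fold rise with a log2 fold change of 2.16 (95% interval 1.66 to 2.66; limma adjusted p = 0.00175). The rise passed in 11 of 11 alternatives, with log2 fold changes of 1.82 to 2.51. Its dimmer probe set (1439909_PM_at) read 3.11 on both knockdown arrays, against 2.80 and 2.64 on the scramble arrays, again without overlap, with a log2 fold change of 0.39 (adjusted p = 0.055). The preadipocyte markers, Pdgfra, Pdgfrb, Dlk1 and Cd34 among them, were higher on the same knockdown arrays, as given above, and their part in the Zfp521 result was not tested.

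Rcor1, which encodes the CoREST scaffold of the demethylase LSD1, was 1.44-fold higher at its brightest probe set (6.53 and 6.51 on the knockdown arrays, against 5.92 and 6.07 on the scramble arrays; adjusted p = 0.0209). That probe set, 1434336_PM_s_at, can detect several transcripts, and the other Rcor1 probe sets had log2 fold changes of -0.01 and -0.20 with overlapping groups. The call was lost without knockdown replicate 1, without knockdown replicate 2, without scramble replicate 1 and after quantile normalization, with adjusted p-values up to 0.117. Tle5, a short Groucho relative that lacks the repeat domain of TLE3, was 1.68-fold lower, with 4.78 and 4.51 on the knockdown arrays, against 5.37 and 5.42 on the scramble arrays (adjusted p = 0.0101). Its adjusted p was 0.0731 without knockdown replicate 2. Tle2 and Prdm2 had log2 fold changes of 0.56 and 0.32 and did not pass (adjusted p = 0.0972 and 0.0828), nor did Dpf3 and Ctbp2, at -0.34 and -0.20. Tle2 rested on single scramble arrays: it was 0.82 (adjusted p = 0.0189) without scramble replicate 1 and 0.30 without scramble replicate 2. Prdm2 passed after median centring (adjusted p = 0.0486), and Dpf3 passed without scramble replicate 2 (adjusted p = 0.0473) and was -0.21 without scramble replicate 1. Dpf3 encodes a chromatin remodelling subunit that EBF2 recruits, and Ctbp2 a corepressor that PRDM16 binds. Pparg, the adipogenic receptor that EBF2 recruits, had a log2 fold change of -0.17 (adjusted p = 0.306).

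**Figure D3:**
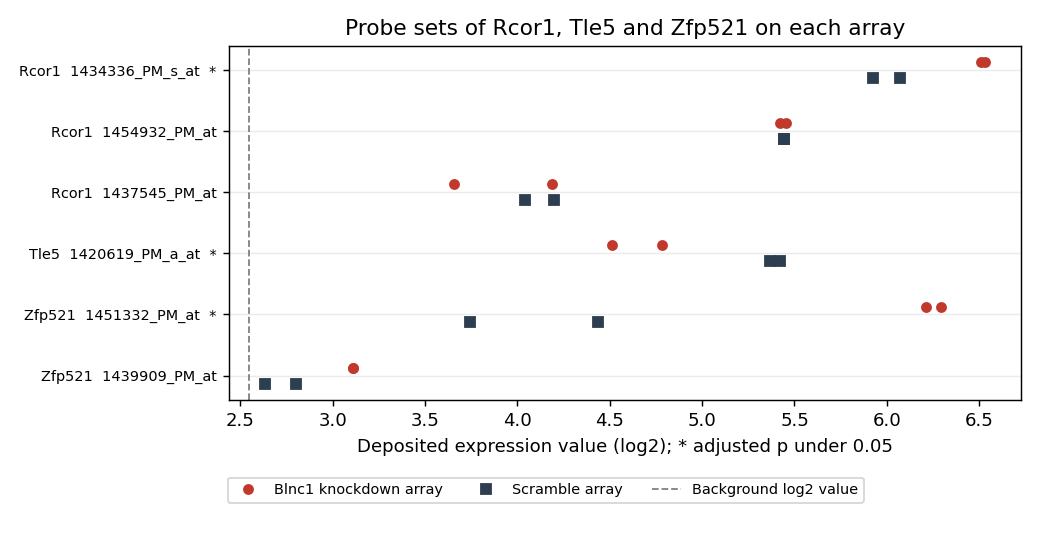
Deposited log2 values of every probe set of Rcor1, Tle5 and Zfp521 on the Blnc1 knockdown arrays (circles) and the scramble arrays (squares), 2 arrays each, with the background log2 value of 2.55 dashed. An asterisk marks an adjusted p under 0.05: the brighter probe set of Zfp521 lies near 6.25 in knockdown and near 4.09 in scramble.

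Brown fat genes, many of them targets of EBF2 and PRDM16, were mostly lower. Of 13 measured brown fat genes, 10 were lower in knockdown, 1 was higher and 2 did not pass, with a median log2 fold change of -0.88. The higher gene was Elovl3, with group means of 6.25 in knockdown and 5.18 in scramble (log2 fold change 1.07, limma adjusted p = 0.00213). Slc27a2 and Ntrk3 did not pass, at 0.04 and -0.13. The list holds Cidea (log2 fold change -2.01), Ucp1 (-1.87), Ppara (-1.85) and Pdk4 (-1.82). Kcnk3, a potassium channel gene enriched in brown fat, read 4.98 and 4.88 on the knockdown arrays, against 5.67 and 6.05 on the scramble arrays, a log2 fold change of -0.93 (adjusted p = 0.0085; 0.0582 without knockdown replicate 2). Dio2, Plin5, Cpt1b, Cox8b and Cox7a1 were the other lower genes, at -0.95 to -0.60. Dio2 was at background in knockdown and had an adjusted p of 0.0572 without knockdown replicate 2. Without knockdown replicate 1, Plin5 had 0.0591 and Cpt1b 0.0672, and Cox7a1 did not pass without either knockdown replicate. The hepatocyte markers, given above, were lower on the same arrays, and their part here was not tested. Earlier results of these data were known when this list was chosen, so it is not independent evidence of a direction.

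Of 11 measured white fat genes, several of them known to be repressed by PRDM16, 6 were higher in knockdown, 0 were lower and 5 did not pass, with a median of 0.48. Lep, the leptin gene, read 5.73 and 5.97 on the knockdown arrays, against 4.48 and 3.89 on the scramble arrays (log2 fold change 1.66; adjusted p = 0.00335). Psat1, Trim14, Wfdc21, Igfbp3 and Nnmt were the others, at 1.02 to 0.48, of which Nnmt did not pass without either knockdown replicate, without scramble replicate 2 or after quantile normalization, and Wfdc21 had an adjusted p of 0.0582 without knockdown replicate 1. Retn, the resistin gene, had a log2 fold change of 0.29 (adjusted p = 0.113), and Agt, which encodes angiotensinogen, had -0.12 with overlapping groups. For the muscle fate that PRDM16 restrains, of 12 measured genes 0 were higher, 2 were lower and 10 did not pass, with a median of -0.07. The lower genes, Myod1 (log2 fold change -0.43) and Pax7 (-0.42), had knockdown means at background, and Pax7 was at background in scramble too. Neither passed without a knockdown replicate or after quantile normalization or median centring. Pax3 and Myh3 had 0.40 and -0.30 and did not pass. Pax3 was 0.69 (adjusted p = 0.0166) without scramble replicate 1 and 0.11 without scramble replicate 2.

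**Figure D4:**
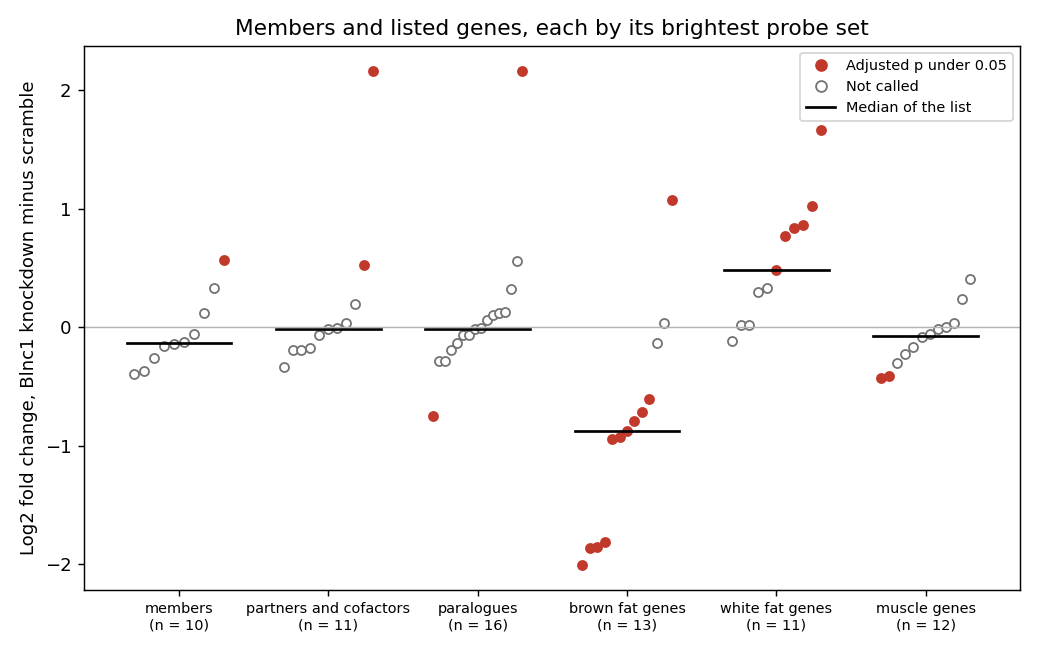
Log2 fold change (Blnc1 knockdown minus scramble) of the 10 members and of 5 lists of related genes, each gene by its brightest probe set, with filled points for an adjusted p under 0.05 and a line at the median. Among members, partners and paralogues the genes that passed were Zfp521 at 2.16, Plac8 at 0.56, Rcor1 at 0.52 and Tle5 at -0.75, while the brown fat genes lie mostly below 0 and the white fat genes mostly above.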

How the data were processed

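The values are log2 expression levels deposited by the authors, 1 per probe set and array, on Affymetrix mouse PM strip arrays. Labelled RNA was made from 250 ng of total RNA with a 3' in vitro transcription kit, per the labels' protocols, which makes distant probe sets read low in degraded RNA. Per the submitters' processing notes the software was affy, RMA and limma, without roles, and the normalization and genome build are not given in the sources used here. Of 45037 probe sets other than 104 controls, the platform annotation names 1 gene for 28898, several for 551 and none for 15588. All 10 members matched a RefSeq gene by Entrez ID.

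Blnc1 knockdown was compared with scramble by lmFit and eBayes on all 45037 probe sets in R 4.3.3 with limma 3.58.1 (residual degrees of freedom 2, prior 4.933). It was two-sided, with Benjamini-Hochberg adjustment over all of them. Listed genes stood by their brightest probe set. The background log2 value, 2.55, is the highest of the antigenomic controls with 3 to 24 G or C bases. The number of arrays limits the precision, and 2 against 2 leaves no permutation test that could pass 0.05. The fit was also run on 5 simulated data sets with 45037 probe sets, 200 of them changed. There it recovered 0.69% of changes of 0.5, 74% of changes of 1 and 99.1% of changes of 2, and 4.53% of calls were false. In the real comparison 6356 probe sets were called, far more than were changed in the simulation, and the adjusted p depends on that number. The simulated shares therefore do not give the recovery or the false calls of the real comparison.

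The members, lists, tests and alternatives were chosen with earlier results of these data known. Named genes are all members, the genes of each list that passed, the 4 largest changes per list, and the 3 nearest patterns to Ebf2 and to Plac8. Cebpb, Pparg, Retn, Agt and the cell markers were named beside them. Alternatives were quantile normalization, median centring, leaving out the dimmest 40 percent, eBayes with a trend or robust, a replicate block, each array left out in turn, 1 probe set per gene, and the mean of a gene's probe sets. Figures were drawn with matplotlib 3.10.9.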

Additional observations from a re-analysis of the deposited data

How the results depend on the processing

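Of 245 values of member probe sets and genes under alternatives, 210 kept their direction and side of the threshold. Another 10 newly passed, 4 no longer passed and 21 changed sign, all of these 21 without passing. Of the 4 that no longer passed, 3 were of Plac8 and the other was the mean of the Ebf2 probe sets. Such means were set against the limma test with 1 probe set per gene, where Ebf2 had an adjusted p of 0.0477. In the test over all probe sets Ebf2 did not pass. Member probe sets called lower numbered 1, in place of 0, after quantile normalization, without the dimmest 40 percent of probe sets, in eBayes with a trend and with 1 probe set per gene, which was Ebf2 each time, and 0 to 2 without 1 array. Those called higher numbered 2, in place of 1, after median centring and in eBayes with a trend, where Ebf3 joined Plac8, and 0 to 1 without 1 array. All probe sets called numbered 6356, 1925 to 6050 without 1 array, and 3363 when 17097 genes were tested by 1 probe set each. Of the calls 61.9% were higher, 53.1% after quantile normalization and 74.9% after median centring. White fat and muscle genes called numbered 8, 5 after quantile normalization, and 4 to 8 without 1 array. Partners, cofactors and paralogues called numbered 3, and 1 to 4 without 1 array. Brown fat genes called numbered 11, and 8 to 11 without 1 array.

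The cause of the turned signs was not tested. After quantile normalization these were Ebf1 1416302_PM_at (-0.076), Zbtb7b 1420663_PM_at (-0.078) and Tle3 1449554_PM_at (0.058). After median centring they were Ebf2 1449102_PM_at (0.008), Tle3 1419655_PM_at (0.01) and 1449554_PM_at (0.052). With the mean of all probe sets Ebf3 turned to -0.013, and Ebf2 had -0.26 with an adjusted p of 0.0819. Leaving out 1 array at a time gave ranges that span 0 for Ebf1 1416302_PM_at -0.028 to 0.140, Ebf1 1448293_PM_at -0.192 to 0.018, Ebf2 1449102_PM_at -0.141 to 0.026, Ebf3 1460666_PM_a_at -0.663 to 0.095, Prdm16 1429309_PM_at -0.494 to 0.144, Tle3 1419655_PM_at -0.146 to 0.035, Tle3 1449554_PM_at -0.129 to 0.102, Zbtb7b 1420663_PM_at -0.207 to 0.275, Zbtb7b 1455071_PM_at -0.341 to 0.056, Zfp516 1455944_PM_at -0.094 to 0.194.

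The arrays' replicate numbers are shared by the groups, but deviations of same-numbered arrays correlated at only 0.03555 over 2 pairs, so the numbers were not taken to pair samples. With the replicate block 6508 probe sets were called, Plac8 had an adjusted p of 0.0206 and Ebf2 of 0.0727. Only 2 arrays a group limit every value here: probe sets near background, such as the dimmer ones of Tle3 and Prdm16, carry little signal.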
